A study of Mus musculus with 18 samples.

Results

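The 10 antioxidant enzyme genes *Cat*, *Sod1*, *Sod2*, *Sod3*, *Gpx2*, *Gpx3*, *Prdx6*, *Gclc*, *Nqo1* and *Hmox1* were followed in fetal and newborn mouse lung. A gene was taken by its probe set, the group of array probes that measures 1 transcript, where that probe set carried the gene's symbol and no other. By this rule 9 of the 10 genes had 1 probe set each, out of 19938 gene symbols so measured, and *Prdx6* had none and was not analysed here. All 9 were at or above the 35th percentile of the array on all 18 arrays.

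These enzymes remove reactive oxygen species, which a lung meets in larger amounts once it breathes air. Superoxide dismutases turn superoxide into hydrogen peroxide, SOD1 mainly in the cytosol, SOD2 in mitochondria and SOD3 outside the cell. Catalase, glutathione peroxidases and peroxiredoxins then break down the peroxide, glutamate-cysteine ligase makes the glutathione that some of them use, and NQO1 and HMOX1 deal with quinones and heme. Several of the genes are known targets of NRF2, a transcription factor that acts through antioxidant response elements and that is held in check by KEAP1.

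Whole-lung RNA was measured on 18 arrays in 6 groups of 3 biological replicates, as log2 expression. ScapΔ/Δ mice carried *Scap* flox/flox with SP-C-rtTA and a (tetO)7CMV-Cre transgene, and their controls were *Scap* flox/flox littermates without rtTA or without Cre. Both were collected at E18.5 (embryonic day 18.5, arrays C7, C8 and C9 for controls and KO10, KO11 and KO12 for ScapΔ/Δ) and at PN1 (day of birth, C13, C14 and C15 for controls and KO16, KO17 and KO18 for ScapΔ/Δ). Insig1/2Δ/Δ mice carried the same transgenes on *Insig1* flox/flox and *Insig2*-/-, and their E17.5 controls (C19, C20 and C21 against KO22, KO23 and KO24) were *Insig1* flox/flox littermates that lacked *Insig2* too. All dams had doxycycline in their chow for a stretch of gestation that ended well before collection. SP-C drives Cre in lung epithelium only, the study describes the deletion as incomplete, and the other lung cells keep the gene. SCAP is needed for the activation of SREBP, the transcription factors of lipid synthesis, and the INSIG proteins restrain it.

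*Scap* was at 9.71 to 9.75 in E18.5 controls and at 9.22 to 9.47 in ScapΔ/Δ lungs, and at 9.76 to 9.92 against 9.53 to 9.65 at PN1. *Insig1* was at 9.29 or above in controls of the *Insig* line and at 8.21 to 8.58 in Insig1/2Δ/Δ lungs, so each line was lower in its targeted gene on every deleted array. The 6 lung identity markers were well expressed on every array. KO17 and KO18 stood apart: they correlated at r = 0.9944 with each other and at 0.9312 to 0.9599 with the other 16 arrays, and the interquartile range of their log2 values was 2.98 against 3.42 to 3.61 elsewhere. At E17.5 the arrays fell into 2 sets that cross the genotypes, C19, C20 and KO22 (r = 0.996 to 0.9967) and C21, KO23 and KO24 (0.9932 to 0.9955), with 0.984 to 0.9914 between the sets. Values without KO17 and KO18 are given beside the results at PN1.

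**Figure D1:**
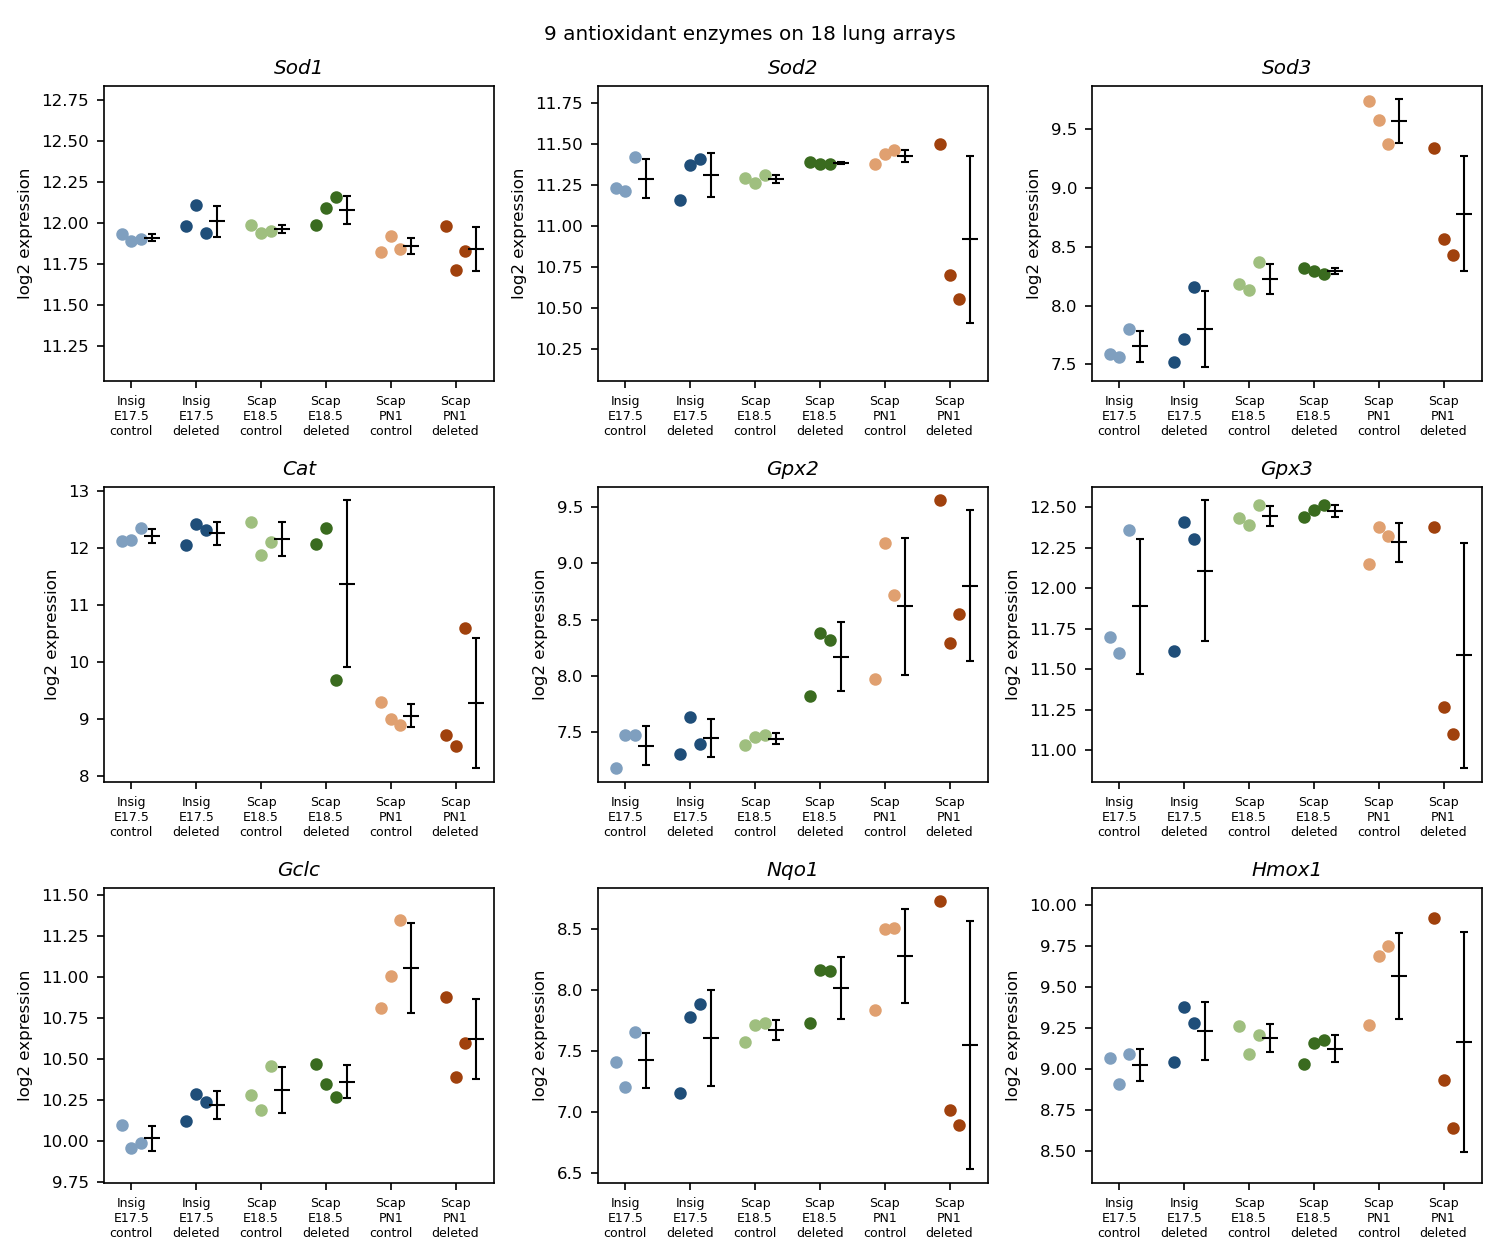
Log2 expression of the 9 measured genes on each of the 18 arrays, with 1 panel per gene and 1 column per group. Points are single arrays in the order of their array names, and black bars are the group mean with the SD (n = 3). *Cat* sits between 11.89 and 12.47 in the E18.5 controls and between 8.91 and 9.30 in the PN1 controls, while the PN1 ScapΔ/Δ column of *Sod2*, *Gpx3*, *Nqo1* and *Hmox1* splits into 1 high and 2 low arrays.

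The first comparison asks how the genes differ between the last day before birth and the day of birth in control lungs. By the study's methods, E18.5 lungs were taken after Cesarean section under anesthesia, and PN1 lungs from newborns killed with pentobarbital. Age and the way of collection therefore cannot be told apart in any comparison of PN1 with E18.5. *Cat* fell and *Sod3* and *Gclc* rose, so 3 of 9 genes passed an adjusted p under 0.05 in limma (2 higher, 1 lower), against 2.58% of the 22800 probe sets tested (1.19% higher and 1.39% lower). The 9 genes were chosen with earlier results of these data known, so the shares here are set side by side as a description and not tested. The values of E18.5 and PN1 controls did not overlap for any of the 9 genes, 6 being higher and 3 lower at PN1; over all probe sets 17.6% were higher and 16.5% lower without overlap. The median difference of the 9 genes was 0.38 on the log2 scale, beside 0.008 over all probe sets. With 3 arrays a group, the exact permutation test of a single gene (two-sided) cannot give a p below 0.1, and it gave 0.1 for each of the 9. The study's methods give 3 biological replicates per condition. The labels give each array its own number and no litter, so p-values measure only the spread between these replicates.

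*Cat* encodes catalase, the peroxisomal enzyme that splits hydrogen peroxide into water and oxygen. The E18.5 controls C7, C8 and C9 had log2 values of 12.47, 11.89 and 12.12. The PN1 controls C13, C14 and C15 had 9.30, 9.0 and 8.91. Every newborn control lay far below every fetal control. The difference was -3.09 (SE 0.67, 95% confidence interval -4.58 to -1.60, adjusted p = 0.0402 from limma), a level at birth 0.117 of that before birth. Of the 16501 filtered probe sets with 1 symbol, this was the lowest difference. The call itself was close to the threshold: over 21 alternative settings the adjusted p ran from 0.00431 to 0.166 and 11 passed. It was lost without any 1 of C7, C8, C9, KO10, C13, C14 or C15, and with no filter, quantile normalization or median centring, while the size stayed between -3.23 and -2.94. The SE draws on the spread of all 12 *Scap* arrays. The SD of *Cat* was 0.29 and 0.20 in E18.5 and PN1 controls, and 1.47 and 1.15 in ScapΔ/Δ lungs of these ages. Without KO12 the adjusted p was 0.0135 from limma.

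Single ScapΔ/Δ arrays stood apart for *Cat*. At E18.5 KO10 and KO11 had 12.08 and 12.36, within the control range, and KO12 had 9.69. At PN1 KO16 and KO17 had 8.72 and 8.53, below the controls, and KO18 had 10.61. KO12 thus lay nearer to the newborn controls than to its own group, and KO18 lay between the ages. Other genes that were lower at birth are set beside it, all chosen after their values were seen. *Cyp2e1*, a cytochrome P450 of ethanol and fatty acid oxidation, was at 9.39 to 9.85 in E18.5 controls and 10.34 in KO12, and at 6.43 to 6.89 in PN1 controls and 6.58 in KO18. *Hif3a*, a hypoxia-inducible factor subunit, was at 11.03 to 11.08 in E18.5 controls and 10.55 in KO12, and at 7.90 to 9.21 in PN1 controls and 9.92 in KO18. *Gng7*, a G protein subunit, was at 8.08 to 8.18 and 7.92 in KO12, and at 7.69 to 7.94 and 7.82 in KO18. Single genes thus differed in where these 2 arrays lay. The lungs of the *Insig* line at E17.5 had *Cat* at 12.05 to 12.43 in all 6 arrays, close to the E18.5 controls.

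**Figure D2:**
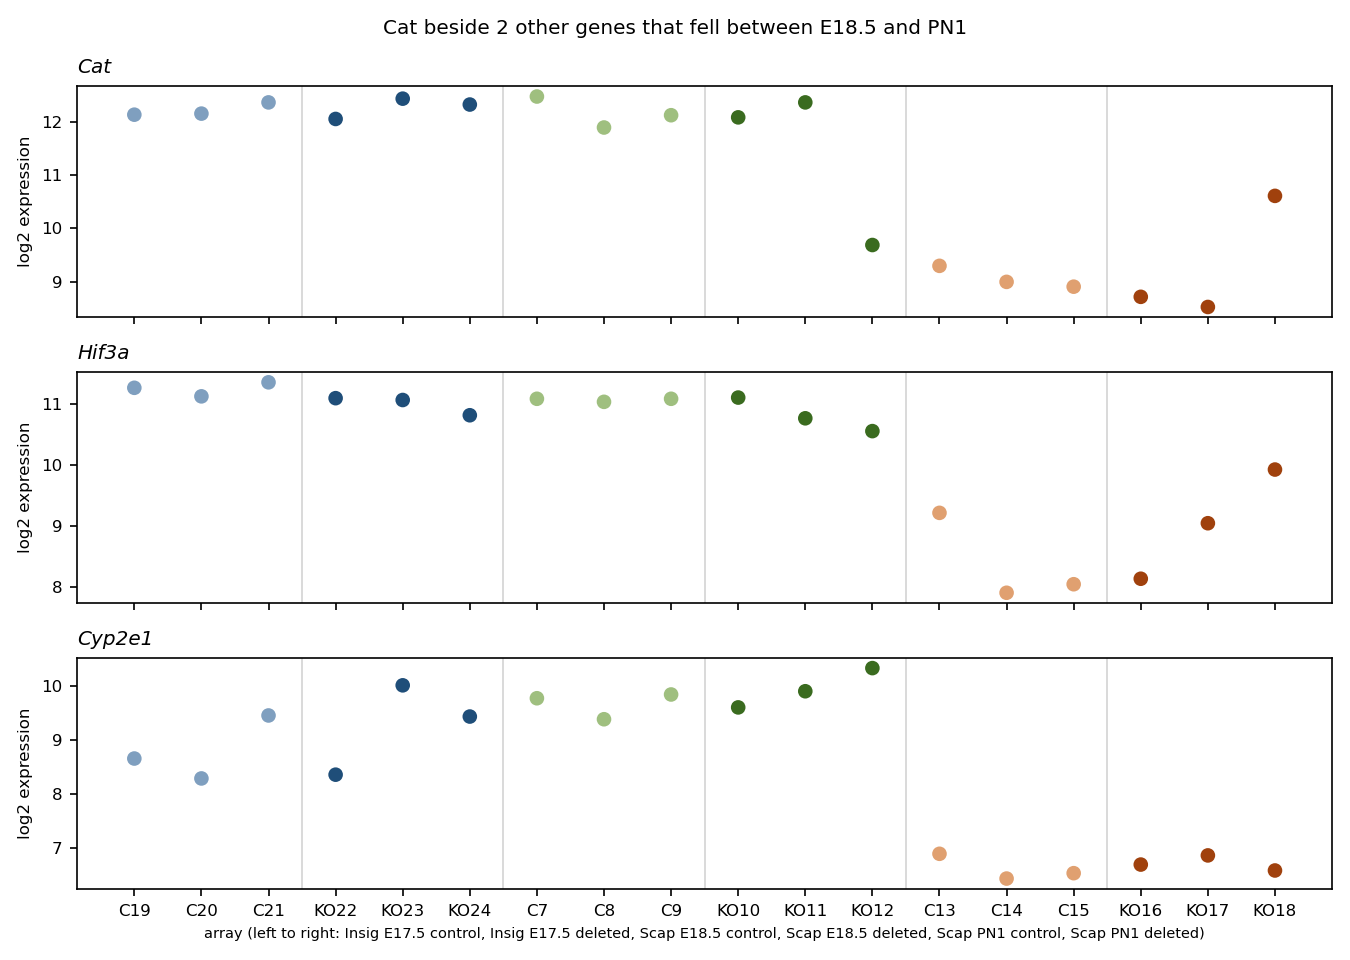
Log2 expression of *Cat*, *Hif3a* and *Cyp2e1* (y axis, 1 panel each) on the 18 arrays (x axis, grouped by line, age and genotype). *Cat* is at 11.89 or above on all E17.5 and E18.5 arrays except KO12 at 9.69, and *Cyp2e1* is at 6.43 to 6.89 on all 6 PN1 arrays.

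By group mean *Cat* was lowest in PN1 controls (9.07 ± 0.20, SD, n = 3) and PN1 ScapΔ/Δ lungs (9.29 ± 1.15), then came E18.5 ScapΔ/Δ lungs (11.38 ± 1.47), E18.5 controls (12.16 ± 0.29), *Insig* controls (12.22 ± 0.13) and Insig1/2Δ/Δ lungs (12.27 ± 0.20), and each pair of neighbours in this order overlapped. The 3 genes whose values were most like those of *Cat* over the 18 arrays, out of 16465 probe sets compared, were *Pex26* (Pearson r = 0.935), *Heph* (0.926) and *Gng7* (0.924); without KO17 and KO18 they stood at 0.937, 0.917 and 0.915. PEX26 is part of the import machinery of the peroxisome, where catalase resides, and HEPH oxidizes iron for export. *Pex26* was at 8.35 to 8.46 in E18.5 controls and 8.33 in KO12, and at 7.76 to 7.85 in PN1 controls and 8.01 in KO18. Chosen after their values were seen, *Hif3a* and *Slc2a1*, a glucose transporter, had r = 0.918 and 0.881 with *Cat*. All such correlations are descriptions over arrays that share ages and genotypes, so the points are not independent. Of the genes that start within 1 Mb of *Cat* on the chromosome, 16 were measured, with differences from -0.17 to 1.15, and the 2 that were called were higher at birth.

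The superoxide dismutases differed in how far they moved at birth. *Sod3*, the extracellular enzyme, was at 8.18, 8.13 and 8.37 in the E18.5 controls. In the PN1 controls it was at 9.74, 9.58 and 9.37, above all E18.5 values by a wide margin. It rose by 1.34 (SE 0.20, 95% confidence interval 0.90 to 1.78, adjusted p = 0.00824 from limma), 2.53-fold, and ranked as the 24th highest of the 16501 probe sets. It passed in all 21 alternative settings, with adjusted p from 2.17e-05 to 0.0488. *Sod3* was also ordered by age: *Insig* controls at E17.5 had 7.56 to 7.80, E18.5 controls 8.13 to 8.37 and PN1 controls 9.37 to 9.74. These groups did not overlap, although the E17.5 lungs are of another line. *Gclc* had the same order without overlap (9.96 to 10.10, 10.19 to 10.46 and 10.81 to 11.35). So did *Hmox1*, by narrow gaps (8.91 to 9.09, 9.092 to 9.262 and 9.267 to 9.751). *Sod1* and *Sod2* stayed within a narrow band in the same controls. *Sod1* was at 11.94 to 11.99 before birth and 11.82 to 11.92 after, a difference of -0.10 (95% confidence interval -0.29 to 0.08). *Sod2* was at 11.26 to 11.31 and 11.38 to 11.46, a difference of 0.14 (-0.28 to 0.56).

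*Gclc*, the catalytic subunit of the enzyme that sets the pace of glutathione synthesis, was at 10.28, 10.19 and 10.46 in E18.5 controls. At PN1 the controls had 10.81, 11.01 and 11.35, all above the fetal values. It rose by 0.75 (SE 0.16, 95% confidence interval 0.40 to 1.09, adjusted p = 0.0335 from limma), 1.68-fold. The call passed in 12 of 21 alternative settings (adjusted p 0.00299 to 0.151) and was lost without any 1 of C7, C8, C9, KO11, KO12, C14 or C15, under median centring and in the methods' t-test, which the study states for the *Insig* line and which was tried here in the *Scap* line too. Its partner *Gclm*, the modifier subunit, differed by 0.21 (adjusted p = 0.8114 from limma) and did not pass with all arrays. It was called in the fit without KO17 and KO18, which are outside this comparison but enter the spread of the fit. *Gclc* and *Sod3* had r = 0.904 with each other over the 18 arrays (0.912 without KO17 and KO18), and both had *Hs3st1*, a heparan sulfate sulfotransferase, and *Cxcl16*, a chemokine, as the 2 genes most like them (r = 0.975 and 0.957 for *Sod3*, 0.943 and 0.941 for *Gclc*). *Hs3st1* was at 7.30 to 7.42 in E18.5 controls and at 8.19 to 8.39 in PN1 controls. The arrays share their ages in these correlations as well.

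Of the other peroxidases, *Gpx2*, the glutathione peroxidase best known from epithelia, was at 7.39, 7.46 and 7.48 in E18.5 controls and at 7.97, 9.18 and 8.72 in PN1 controls. The newborn values were spread over more than a log2 unit. The difference of 1.18 (SE 0.34, 95% confidence interval 0.42 to 1.94) had an adjusted p of 0.118 from limma and did not pass, though it came to 2.26-fold and ranked 51st highest. It passed in 4 of 21 alternative settings. Among them were the fit without KO16 (adjusted p = 0.0131 from limma, where 12% of all probe sets passed) and that without KO17 and KO18. These arrays are outside this comparison and enter it through the shared spread. *Gpx3*, the secreted plasma form, was at 12.39 to 12.51 before and 12.15 to 12.38 after birth, a difference of -0.16 (-0.73 to 0.41). *Nqo1* (7.58 to 7.73, then 7.84 to 8.51) and *Hmox1* (9.09 to 9.26, then 9.27 to 9.75) were higher in each newborn control than in each fetal one, by 0.61 and 0.38, with adjusted p = 0.655 and 0.691 from limma. Array C13 was the lowest newborn control for 7 of the 9 genes, all but *Cat* and *Sod3*.

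Markers of some other cells moved with age in the same arrays. The mean log2 level of 8 neutrophil markers was 7.59 to 7.78 in E18.5 controls and 8.71 to 8.93 in PN1 controls, with 4 of 8 called higher, and that of 8 smooth muscle and pericyte markers was 9.95 to 10.14 and 10.73 to 10.92, with 5 of 8 called higher. *Sod3* is known as a product of vascular smooth muscle, and *Gclc* and *Hmox1* are expressed in many cell types; the part of these markers in the results was not tested. Macrophage and monocyte markers (10 genes) were at 9.14 to 9.28 and 9.33 to 9.53. Red cell markers bear on *Cat*, which erythroid cells also carry: the 5 of 10 that were measured had means of 8.32 to 8.39 at E18.5 and 8.33 to 8.70 at PN1 in controls, with 0 called; their part in the *Cat* values was not tested. In RNA from whole lung, fewer cells of a type and less RNA per cell cannot be told apart.

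**Figure D3:**
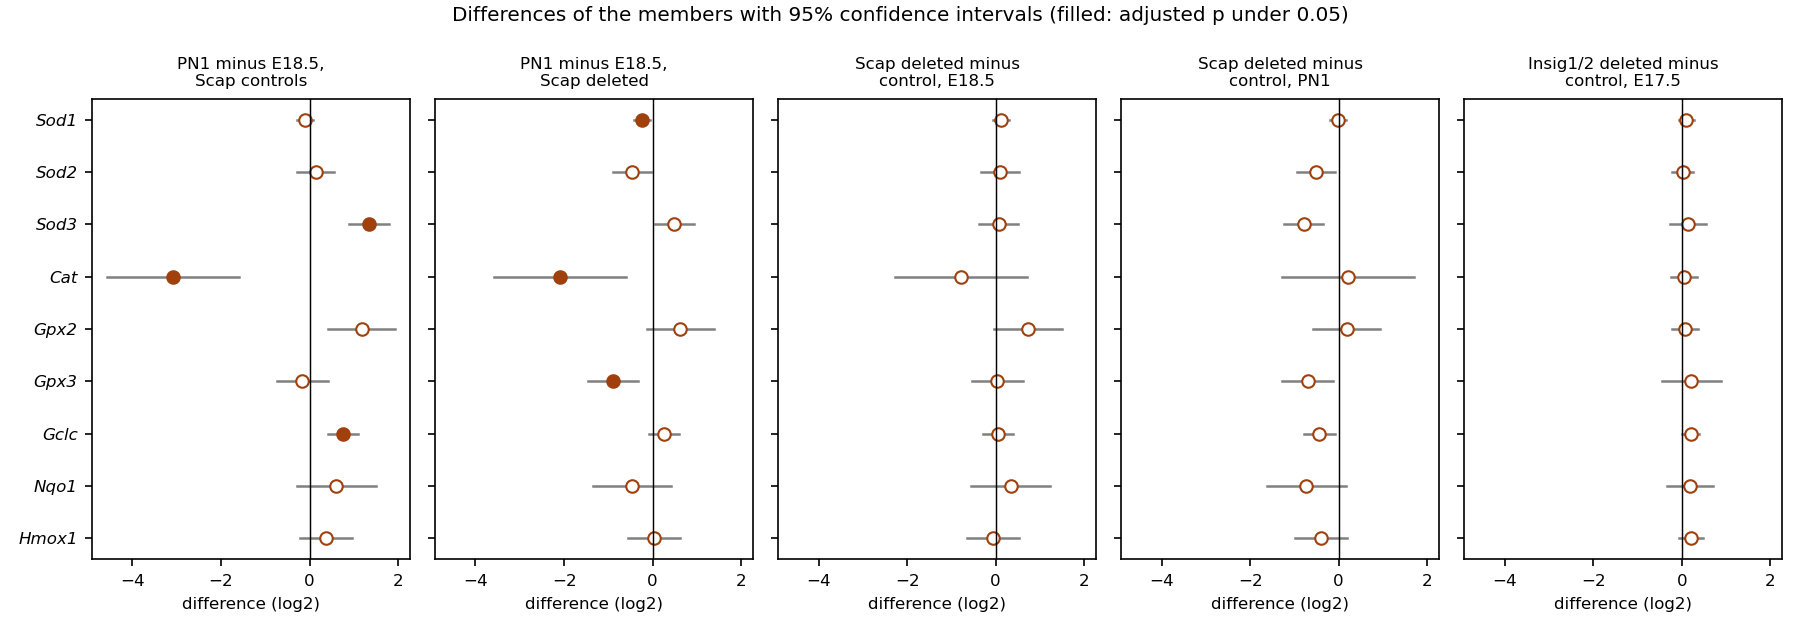
Difference on the log2 scale (x axis) of the 9 genes (y axis) in 5 comparisons, with 95% confidence intervals from limma; filled points passed an adjusted p under 0.05. *Cat*, *Sod3* and *Gclc* are filled in Scap controls from E18.5 to PN1, *Cat*, *Gpx3* and *Sod1* in ScapΔ/Δ lungs, and no gene in the 3 comparisons of deleted with control lungs.

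The second comparison asks the same of ScapΔ/Δ lungs. *Cat*, *Gpx3* and *Sod1* fell from E18.5 to PN1 and 0 genes rose, so 3 of 9 passed in limma against 37.6% of all probe sets (17.5% higher and 20.1% lower). With both directions counted, this share is close to the background. *Cat* was lower by 2.09 (SE 0.67, adjusted p = 0.0361 from limma), with KO12 and KO18 overlapping. *Gpx3* was at 12.44, 12.48 and 12.51 in KO10, KO11 and KO12 and at 12.38, 11.27 and 11.10 in KO16, KO17 and KO18. KO16 lay just under the fetal arrays and the other 2 lay over a log2 unit below them. Its difference was -0.89 (SE 0.26, adjusted p = 0.0272 from limma). *Sod1* was at 11.99 to 12.16 and then at 11.71 to 11.98, a small difference of -0.24 (SE 0.08, adjusted p = 0.0437 from limma).

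In the methods' t-test of the *Insig* line 0 of the 9 passed, where 3 of all 22800 probe sets passed as higher and 2 as lower. The calls in limma rested in part on KO17 and KO18. Without them *Gpx3* differed by -0.10, *Sod1* by -0.10, *Sod3* by 1.05 and *Hmox1* by 0.80. KO16 was then the lone PN1 ScapΔ/Δ lung and was assumed to vary like the other groups. *Cat* then differed by -2.65. Over the 21 alternative settings, of limma and of the methods' t-test, the adjusted p of *Cat* ran from 0.00698 to 0.269 and 11 passed. *Sod3* with all arrays was at 8.27 to 8.32 before and 8.43 to 9.34 after birth and differed by 0.49 (adjusted p = 0.0718 from limma). Leaving out 1 array at a time, the calls ran from 0 to 6; *Cat* was lost without C7, C8, C9, KO10, KO11, C15 or KO17, *Gpx3* without KO10, KO11, KO12, KO17 or KO18, and *Sod1* without C7, C8, C9, KO11, KO12, C13, C14, C15, KO17 or KO18. Quantile normalization also ended the calls of *Cat* and *Sod1*. Without KO16 the genes that passed were *Cat*, *Gpx3*, *Hmox1*, *Nqo1*, *Sod1* and *Sod2*, where 72.1% of all probe sets passed.

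The region around the transcription start is printed for *Cat*, *Gpx3* and *Sod1*, so that their promoters can be set side by side. These are the 3 genes called lower at PN1 in ScapΔ/Δ lungs with all arrays and, for *Cat*, in controls. In ScapΔ/Δ lungs that share of calls was close to the background, and without KO17 and KO18 *Gpx3* and *Sod1* each differed by -0.10. The sequences are from RefSeq on GRCm38.p6, which holds 6 of the 10 genes in the table used, and run 5′ to 3′ on the strand of the gene from 250 bases before the start to 50 bases after it, 300 bases each. They lie at chr2:103485104-103485403 on the minus strand (*Cat*), chr11:54902604-54902903 on the plus strand (*Gpx3*) and chr16:90220512-90220811 on the plus strand (*Sod1*). Capitals mark matches on either strand to the antioxidant response element core TGACNNNGC, the hypoxia response element core ACGTG, the GC box GGGCGG, the CCAAT box CCAAT and the TATA box TATAAA.
Cat: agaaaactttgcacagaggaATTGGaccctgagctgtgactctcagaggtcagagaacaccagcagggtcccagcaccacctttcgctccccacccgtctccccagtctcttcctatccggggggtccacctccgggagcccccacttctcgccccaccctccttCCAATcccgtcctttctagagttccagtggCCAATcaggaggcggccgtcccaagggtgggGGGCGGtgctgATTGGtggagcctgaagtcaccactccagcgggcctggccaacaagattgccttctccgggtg
Gpx3: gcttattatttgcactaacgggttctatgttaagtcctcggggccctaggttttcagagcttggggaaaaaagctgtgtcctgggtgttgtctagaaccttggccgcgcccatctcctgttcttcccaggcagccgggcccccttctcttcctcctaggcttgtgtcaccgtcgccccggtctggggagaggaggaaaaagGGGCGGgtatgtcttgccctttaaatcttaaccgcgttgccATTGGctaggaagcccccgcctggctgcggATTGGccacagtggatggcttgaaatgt
Sod1: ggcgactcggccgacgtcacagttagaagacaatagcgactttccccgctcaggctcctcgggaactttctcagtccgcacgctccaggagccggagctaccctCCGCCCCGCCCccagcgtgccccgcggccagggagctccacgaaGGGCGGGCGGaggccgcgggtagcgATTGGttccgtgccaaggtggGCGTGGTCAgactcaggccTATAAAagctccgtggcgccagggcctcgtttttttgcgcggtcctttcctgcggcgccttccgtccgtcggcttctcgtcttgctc

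*Cat* held 4 CCAAT boxes and 1 GC box in this window and no TATA box. *Gpx3* held 1 GC box and 2 CCAAT boxes. *Sod1* held a TATA box at -37 to -32 from the start, with GC boxes, 1 CCAAT box and, at -56 to -48 on the minus strand, the 1 antioxidant response element core found in the 6 promoters. That core was in 12.4% of all 32851 promoters of this length, the GC box in 35.7% (5 of the 6 here), the CCAAT box in 37.4% (5 of 6), the TATA box in 13.6% (*Sod1* and *Nqo1*) and the hypoxia response element core in 19.6% (0 of 6). The GC boxes of *Sod1* overlap in pairs. A match describes the letters only, and a letter string missing from 300 bases says nothing of the factor elsewhere.

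The third comparison, deleted against control lungs at E18.5, asks what epithelial loss of *Scap* changed before birth. For the 9 genes 0 passed in limma, with 0 at an unadjusted p under 0.05, and in the methods' t-test of the *Insig* line 0 passed after adjustment and 2 before it; of all probe sets 0.00877% passed. *Gpx2* came nearest. KO10, KO11 and KO12 had 7.82, 8.38 and 8.32 against 7.39, 7.46 and 7.48 in the controls, all 3 above all controls. The difference was 0.73 (95% confidence interval -0.03 to 1.49, adjusted p = 0.551 from limma), 1.66-fold, and ranked 54th highest of 16501. *Sod1* and *Sod2* were also higher in every ScapΔ/Δ lung than in every control, by 0.12 and 0.10 (for *Sod1* the nearest lungs of both groups were at 11.99), where 14.5% of all probe sets were higher without overlap. *Cat* differed by -0.79 with all arrays and by 0.06 without KO12. *Nqo1* was higher by 0.34 with overlap, and *Sod3*, *Gpx3*, *Hmox1* and *Gclc* differed by -0.07 to 0.07. The list means of some cell type markers differed with genotype at this age, with 0 genes of either list called. Macrophage and monocyte markers (10 genes) had means of 9.32 to 9.48 in ScapΔ/Δ lungs and 9.14 to 9.28 in controls. Of these genes 7 were higher and 3 lower. Type II cell markers (12 genes) had means of 11.66 to 11.74 and 11.84 to 11.92, with 4 higher and 8 lower. Among them *Sftpc* was at 13.37 to 13.42 and 13.38 to 13.42. The type II list also holds *Sftpb*, *Abca3* and *Lpcat1*, which the study reports as lower in ScapΔ/Δ lungs. The part of these markers in the values was not tested.

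At PN1 the same comparison again gave 0 of 9 calls in limma (0.00877% of all probe sets passed), with 4 genes at an unadjusted p under 0.05 and 0 in the methods' t-test of the *Insig* line before or after adjustment. *Sod3* was the only one of the 9 without overlap, where 11% of all probe sets were lower without overlap. KO16, KO17 and KO18 had 9.34, 8.57 and 8.43 against 9.74, 9.58 and 9.37 in the controls. KO16 was just below the lowest control and the other 2 were far below it. The difference was -0.79 (SE 0.20, 95% confidence interval -1.23 to -0.34, adjusted p = 0.0897 from limma). The other 3 were *Gpx3* (-0.70, adjusted p = 0.112), *Sod2* (-0.51, adjusted p = 0.113) and *Gclc* (-0.44, adjusted p = 0.105). Of the 9 differences 7 were below 0, beside 57.9% of all probe sets, and their median was -0.44 beside -0.06.

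These PN1 values were a mix of 2 kinds of array. KO16 was above the control mean for 6 of 9 genes, KO17 for 0 and KO18 for 1, *Cat*; of all probe sets 54.5%, 57.7% and 56.7% were below the control mean on these arrays. *Nqo1* showed the split most clearly, with 8.73 in KO16 and 7.02 and 6.90 in KO17 and KO18, against 7.84 to 8.51 in the controls. *Hmox1* had 9.92 in KO16, above all controls, and 8.93 and 8.64 in the other 2, below all controls. *Gpx2* had 9.56 in KO16, the highest of all 18 arrays, and 8.29 and 8.55 in the others. The group means of these genes thus lie where no array lies.

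**Figure D4:**
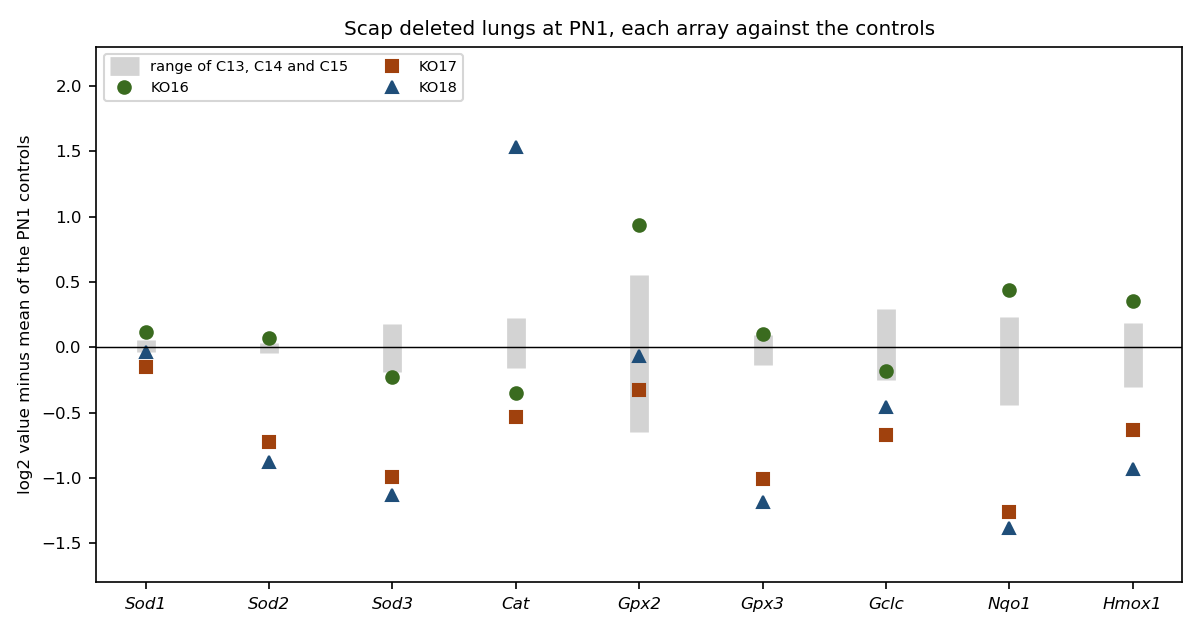
Log2 value of each PN1 ScapΔ/Δ array minus the mean of the 3 PN1 controls (y axis) for the 9 genes (x axis), with grey bars for the range of the controls. KO17 and KO18 lie 0.64 to 1.38 below the control mean for *Sod2*, *Sod3*, *Gpx3*, *Nqo1* and *Hmox1*, KO16 lies at -0.23 to 0.44 for the same genes, and KO18 alone is high for *Cat* (1.54).

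Without KO16, 6 of the 9 passed in limma (*Sod2*, *Sod3*, *Gpx3*, *Nqo1*, *Hmox1* and *Gclc*, all lower), with differences from -1.32 for *Nqo1* to -0.56 for *Gclc*. Of all probe sets 61.9% passed, 24.1% as higher and 37.8% as lower. With both directions counted, the share of members passing is close to that of all probe sets. Without KO17 and KO18, 0 passed, and *Nqo1* (0.44), *Hmox1* (0.35), *Gpx3* (0.10) and *Sod2* (0.07) lay above the controls. Type II cell markers (12 genes) had means of 11.64, 11.35 and 11.30 in KO16, KO17 and KO18 against 11.87 to 11.93 in the controls. Of these genes 2 were higher and 10 lower, and *Sftpc* was at 13.42 to 13.50 against 13.36 to 13.37. Macrophage and monocyte markers (10 genes) had means of 9.46, 8.76 and 8.83 against 9.33 to 9.53, with 1 higher and 9 lower. In both lists 0 genes were called with all arrays, and their part in the result was not tested. The 8 SREBP targets measured were lower than in the controls on all 3 arrays, by 0.91 (KO16), 1.23 (KO17) and 1.30 (KO18) in the mean.

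Whether the effect of *Scap* deletion differed between E18.5 and PN1 was tested by the interaction term, since the comparisons at birth and by genotype share their control arrays. It passed for 0 of 9 genes in limma (0.0% of all probe sets), with 3 at an unadjusted p under 0.05: *Sod3* (-0.85, 95% confidence interval -1.48 to -0.23), *Sod2* (-0.61) and *Gclc* (-0.49), each at adjusted p = 0.265. At an unadjusted p under 0.05 in limma the interaction was above 0 for 1880 and below 0 for 2301 of the 22800 probe sets. Without KO16 it passed for 6, where 58.4% of all probe sets passed. The rise of *Sod3* and *Gclc* at birth was therefore not shown to differ between the genotypes with all arrays.

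In the *Insig* line at E17.5 the comparison asks what raised SREBP activity changed. Of the 9 genes 0 passed in limma (0.0% of all probe sets), with 1 at an unadjusted p under 0.05 and 1 in the methods' t-test, where 0 passed after adjustment. The 1 in limma was *Gclc*, at 10.12, 10.29 and 10.24 in Insig1/2Δ/Δ lungs and 10.10, 9.96 and 9.99 in controls, without overlap. Its difference was 0.20 (95% confidence interval 0.02 to 0.39, adjusted p = 0.758 from limma). *Sod1* was the other gene without overlap (0.10, -0.07 to 0.27), where 5.83% of all probe sets were higher without overlap. All 9 differences were above 0, beside 54.4% of all probe sets, from 0.02 for *Sod2* to 0.22 for *Gpx3*.

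The sets of arrays named above were visible in several of these genes. *Gpx3* was at 11.70, 11.60 and 11.61 in C19, C20 and KO22 and at 12.36, 12.41 and 12.30 in C21, KO23 and KO24, so that 1 control lay with 2 deleted lungs. *Nqo1* (7.41, 7.21 and 7.16 against 7.66, 7.78 and 7.89) and *Sod3* (7.59, 7.56 and 7.52 against 7.80, 7.72 and 8.16) split alike. KO23 and KO24 were above the control mean for all 9 genes (54.4% and 54.0% of all probe sets) and KO22 for 3 (49.1%). Markers of macrophages and monocytes moved with the sets too, at 8.36 to 8.45 and 8.55 to 8.80, as did those of type II cells (11.26 to 11.52 and 11.64 to 11.82) and of club and ciliated cells (10.05 to 10.22 and 10.44 to 10.60). The mean of 8 cardiac muscle markers was 11.49 in C21 and 9.05 to 9.88 on the other 5 arrays. The part of these markers in the values was not tested. *Cat* split by the sets of arrays as well (12.13, 12.15 and 12.05 against 12.36, 12.43 and 12.32). So did *Sod2* (11.23, 11.21 and 11.16 against 11.42, 11.37 and 11.41) and *Hmox1* (9.07, 8.91 and 9.04 against 9.09, 9.38 and 9.28). *Sod1* (11.89 to 12.11) did not. Neither did *Gclc* (10.10, 9.96 and 10.12 against 9.99, 10.29 and 10.24) or *Gpx2* (7.18, 7.48 and 7.31 against 7.48, 7.64 and 7.40).

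The other genes of the pathway were taken from 8 lists with 117 genes, of which 106 passed the filter in the *Scap* fit. In controls from E18.5 to PN1, 1 rose and 1 fell. *Msrb3*, a methionine sulfoxide reductase, rose by 0.60 (adjusted p = 0.0130 from limma). *Xdh*, xanthine dehydrogenase, a source of superoxide when converted to its oxidase form, fell by 0.84 (adjusted p = 0.00756 from limma). The median over the 106 genes was 0.03. Without KO17 and KO18, which enter the spread that this fit shares, 12 rose and 7 fell, *Msrb3* and *Xdh* among them, where 5.63% of all probe sets were higher and 5.4% lower. With all arrays *Mafk*, a partner of NRF2, was higher by 0.48 without passing (adjusted p = 0.0754 from limma). So was *Gsta3*, a glutathione transferase, by 0.84 (adjusted p = 0.155). Both were among the genes that rose in the fit without KO17 and KO18.

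In ScapΔ/Δ lungs from E18.5 to PN1, 4 of the 106 rose and 33 fell, with a median of -0.34, beside 17.5% and 20.1% of all probe sets. *Xdh* fell by 0.83 (adjusted p = 0.00312 from limma) and *Msrb3* rose by 0.31 (adjusted p = 0.0376), the same directions as in controls. Most of these calls rested on KO17 and KO18: without them 1 of the 106 passed as higher and 3 as lower (6.2% of all probe sets passed), with a median of 0.07, and of the 37 genes called with all arrays 3 were called, *Xdh*, *Gstm7* and *Ncf1*. The values that follow are with all arrays. The glutathione S-transferases had 9 of 17 lower, led by *Gstm7* (-1.24), *Gstz1* (-1.21) and *Gstt1* (-1.17), and the other quinone and aldehyde detoxifying genes 7 of 13, with *Nqo2* at -1.07 and *Cbr1* at -1.06. Without KO17 and KO18 *Gstz1* was at -0.40, *Gstt1* at -0.42, *Nqo2* at -0.28 and *Cbr1* at -0.21, and 0 of these 4 passed. Thioredoxin and peroxiredoxin genes had 1 of 17 higher and 4 lower, among them the mitochondrial peroxiredoxin *Prdx3* (-1.12), *Prdx4* (-0.75) and *Msrb2* (-0.81), which without those 2 arrays differed by -0.02, 0.06 and -0.34. Heme, iron and metal handling genes had 3 of 12 lower (*Blvrb* -1.25, *Hmox2* -0.74 and *Slc40a1* -0.69). Among the NRF2 and KEAP1 regulators *Nfe2l2*, which encodes NRF2, fell by 0.81 (adjusted p = 0.0160 from limma) and *Maff* by 0.68, while *Bach2*, a repressor at the same elements, rose by 0.98 and *Mafg* by 0.46. Without KO17 and KO18 these 4 differed by -0.23 (*Nfe2l2*, adjusted p = 0.18 from limma), -0.13 (*Maff*, 0.686), 0.30 (*Bach2*, 0.537) and 0.12 (*Mafg*, 0.583). NADPH oxidases and xanthine oxidase had 4 of 11 lower, with the phagocyte subunits *Cybb* (-0.77) and *Ncf1* (-0.67), and *Duoxa1* higher (0.47). Glutathione synthesis and peroxidase genes had 2 of 12 lower (*Chac1* -0.49 and *Gpx8* -0.38), and NADPH supply genes 1 of 12 (*Nadk2* -0.40).

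**Figure D5:**
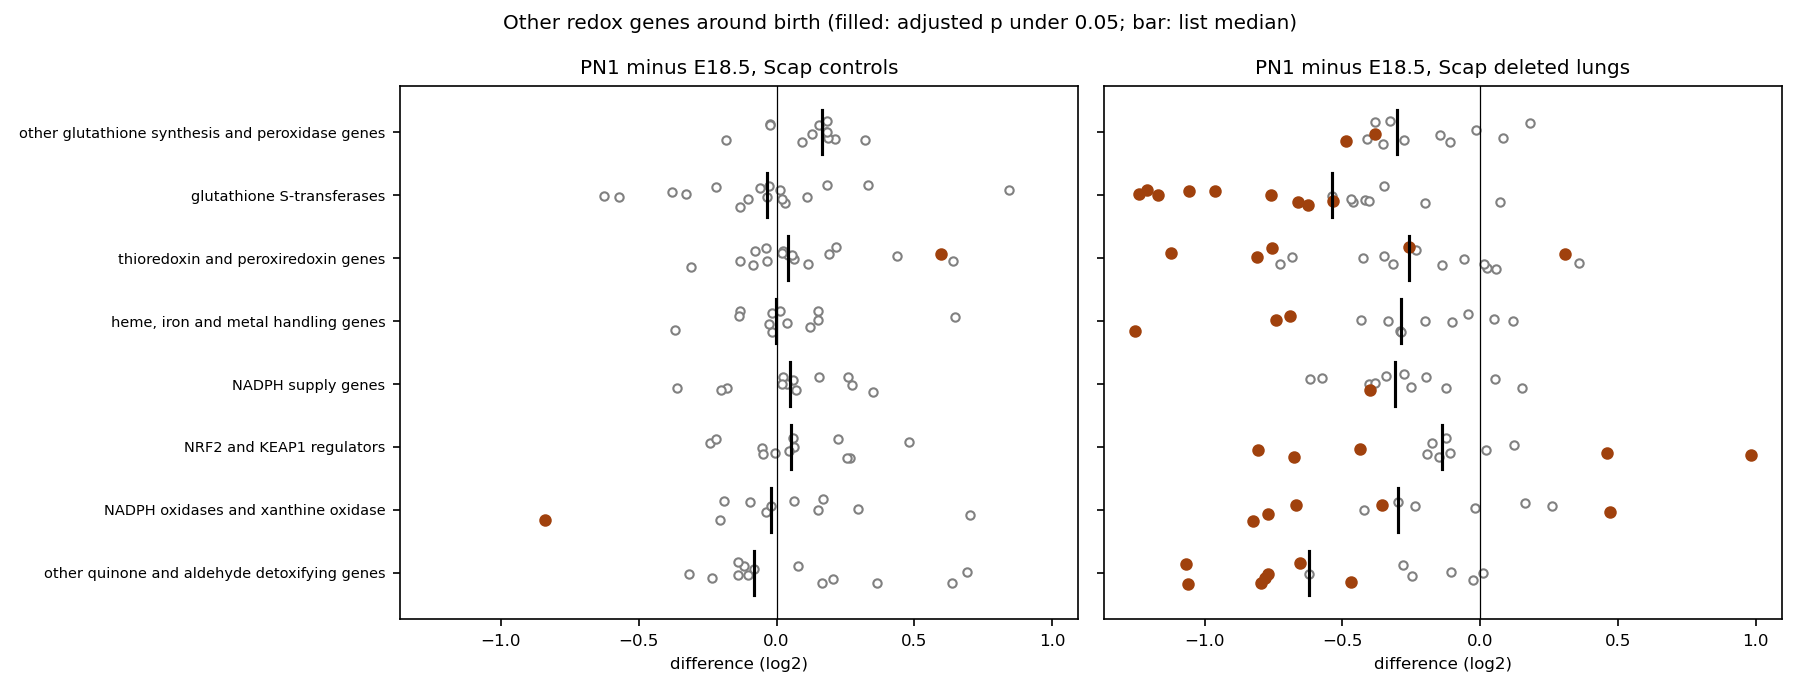
PN1 minus E18.5 on the log2 scale (x axis) for the genes of 8 redox lists (y axis) in Scap controls (left) and ScapΔ/Δ lungs (right); 1 point per gene, filled where the adjusted p was under 0.05, with a bar at the list median. In controls 2 points are filled, *Msrb3* at 0.60 and *Xdh* at -0.84, and in ScapΔ/Δ lungs 37, of which 33 lie below 0.

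In deleted against control lungs 0 of the 106 passed in limma at E18.5 and at PN1, and 0 of 104 in the *Insig* line. The medians were 0.07, -0.29 and 0.11. At PN1 the genes with the largest differences of their lists included *Nfe2l2* (-0.73, adjusted p = 0.0897 from limma), *Gclm* (-0.65, adjusted p = 0.0914), *Aldh1a1*, a retinaldehyde dehydrogenase (-0.87, adjusted p = 0.0897), and *Me1*, malic enzyme and an SREBP target (-0.88, adjusted p = 0.0897), each lower on all 3 ScapΔ/Δ arrays than on all controls. Without KO17 and KO18 they differed by -0.16, -0.06, -0.22 and -0.16, and the median of the 106 genes was 0.06. *Prdx3* (-0.89) and *Gstm4* (-0.97) overlapped with the controls through KO16, and without KO17 and KO18 they lay above them, by 0.20 and 0.19.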

How the data were processed

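RNA of whole mouse lung was hybridised by the authors to Affymetrix Mouse Gene 1.0 ST arrays, and 18 arrays in 6 groups of 3 were used, grouped by their labels. The deposited values are log2 expression per probe set (35556 probe sets, array medians 7.42 to 7.70); per the labels GeneSpring GX 11.5 was used, and the summarization and normalization are not given in the sources used here. For arrays, their number limits the precision. Of the probe sets 21789 carry 1 gene symbol.

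After the study's methods, a probe set was kept when 66% or more of the fitted arrays had it at or above their own 35th percentile. Models were fitted with limma 3.58.1 (R 4.3.3, lmFit and eBayes), 1 to the 12 Scap arrays with a mean per group and 22800 probe sets, 1 to the 6 Insig arrays with 22775, with Benjamini-Hochberg adjustment over all of them and calls at an adjusted p under 0.05. The code was tested on simulated data. The methods name a two-way ANOVA for the Scap line, which was not run here, and Student's t-test with a threshold for the Insig line. That test, called the methods' t-test, was tried on the same values of both lines as an alternative, as were other filters, normalizations, fits, array weights, thresholds and the loss of single arrays or of KO17 and KO18. The genes, their lists and the rule for named genes (all members, up to 4 called genes of each list or else its largest differences, and the 3 genes most like each member) were chosen with earlier results of these data known. Scap arrays of E17.5 were not analysed here. Summaries and plots used Python 3.11.15 with pandas 2.3.3, scipy 1.17.1 and matplotlib 3.10.9.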

Additional observations from a re-analysis of the deposited data

How the results depend on the processing

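With the members counted by their calls, the result in control lungs from E18.5 to PN1 (3) became 1 under median centring, 5 with array weights and 1 at the threshold that the methods give for the *Insig* line (at least 1.5-fold with an adjusted p no higher than 0.01), and 1 to 5 with each array left out. In ScapΔ/Δ lungs from E18.5 to PN1 (3) it became 6 with array weights, 0 in the methods' t-test of the *Insig* line, 0 at the same threshold and 0 to 6 with each array left out. Deleted minus control gave 0 at E18.5 and 1 with array weights (*Gpx2*); at PN1 it gave 0, 2 with all 18 arrays in 1 fit, 7 with array weights and 0 to 6 with each array left out. The difference of the effects between the ages gave 0, 8 with array weights and 0 to 6 with each array left out, and the *Insig* line gave 0 and 6 with array weights. The causes were not tested. With array weights 12.5%, 76.1%, 11.2%, 68.1%, 64.4% and 36.7% of all probe sets passed in these 6 comparisons in the order given, and with all 18 arrays in 1 fit 13.2% did at PN1. In the methods' t-test 3 of the 22800 probe sets passed as higher and 2 as lower in ScapΔ/Δ lungs from E18.5 to PN1. Array weights gave KO16 a weight of 0.0489 and KO17 one of 10.05.

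Of the values of the 9 genes, 18 changed sign with 1 array left out and 19 under the other settings. In deleted minus control at E18.5 *Gpx3* was -0.00299 under quantile normalization, and with each array left out *Cat* ran from -1.28 to 0.0563 and *Gclc* from -0.00945 to 0.129. At PN1 *Cat* was -0.40 with array weights and -0.35 without KO17 and KO18, *Gpx2* was -0.36 with array weights, *Sod1* was 0.080 under quantile normalization, and without KO17 and KO18 *Sod1* was 0.12, *Sod2* 0.072, *Gpx3* 0.10, *Nqo1* 0.44, *Hmox1* 0.35, *Prdx3* 0.20 and *Gstm4* 0.19. With each array left out, *Cat* ran from -0.44 to 0.60, *Sod1* from -0.0904 to 0.0425 and *Gpx2* from -0.20 to 0.46 there. In ScapΔ/Δ lungs from E18.5 to PN1 without KO17 and KO18, *Sod2* was 0.11, *Nqo1* 0.71, *Hmox2* 0.0065, *Gstm4* 0.10 and *Prdx4* 0.0589; *Hmox1* was -0.13 under median centring, -0.22 with array weights and -0.34 to 0.30 with each array left out. For the difference of the effects *Sod1* was 0.0113 under quantile normalization, and without KO17 and KO18 *Gpx3* was 0.0657, *Nqo1* 0.10, *Hmox1* 0.42 and *Gpx2* 0.21. In the *Insig* line, with each array left out, *Cat* ran from -0.0341 to 0.16, *Sod2* from -0.0257 to 0.0992, *Sod3* from -0.0301 to 0.289, *Gpx2* from -0.030 to 0.138 and *Gsto1* from -0.0174 to 0.85.

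Median centring moved the median of all probe sets at PN1 from -0.06 to -0.19, and in ScapΔ/Δ lungs from E18.5 to PN1 from -0.03 to -0.20. No paired analysis was possible because the array numbers of the labels are not shared between groups.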
